A study of Mus musculus with 36 samples.

Results

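The genes described here encode the NF-κB subunits and the inhibitors and feedback genes around them. Their 10 rows (Nfkb1, Nfkb2, Rela, Relb, Rel, Nfkbia, Nfkbiz, Bcl3, Tnfaip3 and Tnfaip2) were taken by name from a count table of 43472 genes, and all 10 were found. The table holds 36 libraries of 3′ mRNA sequencing from primary wild-type EGCs (enteric glial cells, the glia of the gut wall), 4 libraries in each of 9 groups. The EGCs were grown from embryonic C57BL/6J gut as neurospheres and then differentiated in serum. They were left unstimulated or exposed for 6 h, 12 h or 24 h to H-CM, medium conditioned by cells of digested healthy colon, or to TME-CM, medium conditioned by cells of digested orthotopic MC38 colon tumors. TME-CM is called tumor conditioned medium in the sample labels, and MC38 is a mouse colon carcinoma line. The comparisons ask how the tumor medium differs from healthy colon medium and from no stimulation at each time. The labels do not say whether replicates came from separate cultures, so p-values measure the spread between these libraries, which may be technical.

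NF-κB proteins are dimeric transcription factors held in the cytoplasm by inhibitors of the IκB family. In the canonical pathway, cytokine and pattern recognition receptors activate the IKK kinase complex, the inhibitor is degraded, and dimers of RelA, c-Rel and p50 enter the nucleus. In the noncanonical pathway, processing of p100 to p52 releases dimers with RelB. Several NF-κB target genes encode inhibitors of the pathway itself, so their RNA is widely used as a sign of recent NF-κB activity, and glial cells of the gut and brain use the pathway in their response to inflammatory cytokines.

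NF-κB dimers bind κB sites. Sequences just before a listed transcription start are shown for members called at an adjusted p under 0.05 below (Nfkbia, Nfkb2 and Bcl3). Those of members not called (Tnfaip3, Rel and Rela) are shown as well. A gene that was not called may still respond, and Tnfaip3 and Rel were near the limit of detection. Both sets can be compared with the values that follow. They are the 150 bases before the first start listed for the gene in the promoter table, in GRCm38.p6 (the assembly also called mm10). This need not be the outer end of the gene as positioned further below. The Nfkb2 stretch lies inside the gene, and those of Rela and Bcl3 run into it. Bases are 5′ to 3′ on the strand of the gene, with matches of GGGNNTTTCC or of the κB consensus on either strand in capitals. Overlapping matches run together.
Nfkbia (chr12:55492648-55492797, minus strand): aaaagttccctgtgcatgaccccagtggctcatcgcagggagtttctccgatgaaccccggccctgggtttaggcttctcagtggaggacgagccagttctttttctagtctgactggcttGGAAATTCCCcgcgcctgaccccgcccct
Nfkb2 (chr19:46304587-46304736, plus strand): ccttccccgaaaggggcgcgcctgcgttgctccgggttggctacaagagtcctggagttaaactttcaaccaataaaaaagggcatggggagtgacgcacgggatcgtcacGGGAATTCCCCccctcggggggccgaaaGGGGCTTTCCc
Tnfaip3 (chr10:19015411-19015560, minus strand): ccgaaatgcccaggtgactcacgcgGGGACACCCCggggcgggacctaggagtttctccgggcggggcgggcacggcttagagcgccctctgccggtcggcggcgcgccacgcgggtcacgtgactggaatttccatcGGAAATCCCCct
Rel (chr11:23770970-23771119, minus strand): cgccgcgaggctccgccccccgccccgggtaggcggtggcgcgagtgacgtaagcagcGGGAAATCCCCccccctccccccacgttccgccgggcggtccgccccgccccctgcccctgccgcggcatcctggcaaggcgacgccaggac
Bcl3 (chr7:19822756-19822905, minus strand): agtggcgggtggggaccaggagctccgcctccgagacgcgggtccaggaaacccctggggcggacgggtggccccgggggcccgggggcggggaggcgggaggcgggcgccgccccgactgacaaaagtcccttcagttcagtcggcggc
Rela (chr19:5637391-5637540, plus strand): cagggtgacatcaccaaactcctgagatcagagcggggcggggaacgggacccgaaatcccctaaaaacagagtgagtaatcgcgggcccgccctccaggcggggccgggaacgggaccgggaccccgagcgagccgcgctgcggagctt
The promoter table held 7 of the 10 genes, and Nfkb1, Relb and Nfkbiz were not in it. Within 250 bases before a start, GGGNNTTTCC was found in 4 of these 7 genes (Nfkbia, Nfkb2, Tnfaip3 and Rel) and in 1.65% of 27025 mouse genes with promoters of the same length (1.41% of 32851 promoters). The κB consensus was found in 5 of the 7, the same 4 and Tnfaip2, and in 8.23% of all genes (7.25% of promoters). In these genes each match of GGGNNTTTCC was also a match of the κB consensus. The match of Nfkbia lay 29 to 20 bases before its start on the opposite strand, and the match of Rel, a gene near the limit of detection in these cells, lay 91 to 82 bases before its start. The letters were chosen after these promoters had been seen, and a match is a description of the sequence only.

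Libraries held 13518 to 7552509 counts. Their medians were 1526580, 4090589 and 5465090 counts for 6 h, 12 h and 24 h, with common dispersions (squared coefficients of variation) of 0.572, 0.122 and 0.0455 and 9256, 12156 and 12713 genes tested. At 6 h, H-CM replicate 4 was the library of 13518 counts, in which a gene at 0 may lie as high as 110 CPM (read counts relative to the library size, here scaled by TMM) if 3 counts are taken as the limit, for counting error only. Unstimulated replicate 3 of 6 h held 256453 counts. One entry of the table, Yam1, took 20.0% to 48.6% of the counts in the H-CM libraries of 6 h and 11.0% to 37.8% in the TME-CM libraries. Mitochondrial entries took 5.87% to 7.99% of the counts of the H-CM libraries of 6 h and 10.7% or more, with a median of 13.1%, of those of TME-CM. Depth, Yam1 and mitochondrial shares therefore moved with the groups at 6 h. In TME-CM against H-CM EGCs at 6 h, 11 genes were called with Yam1 left out, in place of 9. Leaving out the libraries under 300000 counts gave 6. The part of the depth of the other libraries and of the mitochondrial share in the 6 h results was not tested. At 24 h the Yam1 share ranged from 13.9% to 18.5% for H-CM and from 13.7% to 35.1% for TME-CM libraries.

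Levels below are CPM on library sizes scaled by TMM over all 36 libraries, given for replicates 1 to 4 in that order or as mean ± SD (n = 4). Fold changes are on the log2 scale from edgeR's quasi-likelihood fit of the 12 libraries of a time point, with the standard error (SE), and a gene is called at an adjusted p under 0.05 over all genes tested.

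Nfkbia, Nfkbiz and Bcl3, which encode IκB family proteins, were called higher in TME-CM than in H-CM EGCs at 12 h and at 24 h. At 24 h Nfkbia was 2.01-fold, Nfkbiz 3.53-fold and Bcl3 4.65-fold higher than in H-CM EGCs. Nfkb2 and Relb, the genes of the noncanonical dimer, were called against unstimulated but not against H-CM EGCs, as were Nfkb1 at 12 h and Tnfaip2 at 24 h. Rela, Rel and Tnfaip3 were called in no comparison of these fits. None of the 10 genes was called lower in any comparison.

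At 24 h, 3 of 10 genes were called higher in TME-CM than in H-CM EGCs, while 5.4% of all genes tested were called in either direction and 2.75% were called higher. At 12 h it was also 3 of 10, against 1.89% of all genes in either direction and 1.22% higher. At 6 h edgeR called 0 of the 8 genes that passed the filter on low counts (Rel and Tnfaip3 did not), against 0.0972% of all genes. At that time 5 of the 8 had an unadjusted p under 0.05, as had 562 of 9256 genes tested. DESeq2's Wald test called 2 of the 8 and 23 of all 9256 genes.

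Compared with unstimulated EGCs, TME-CM EGCs had 6 of 10 genes higher at 24 h, where 9.52% of all genes were called in either direction and 4.82% higher. At 12 h, 6 of 10 were higher, against 4.41% in either direction and 2.67% higher. At 6 h, 1 of 8 was higher, Nfkbia, against 0.454% in either direction and 0.432% higher. In that comparison 7 of the 8 had an unadjusted p under 0.05, as had 573 of 9256 genes tested. DESeq2's Wald test called 3 of the 8 and 72 of all 9256 genes. H-CM EGCs, which share the unstimulated controls with this comparison, had 3 of 10 genes higher at 24 h (2.03% of all genes in either direction, 1.07% higher) and 1 of 10 at 12 h (0.403% and 0.354%). At 6 h edgeR called 0 of 8 in H-CM against unstimulated EGCs, where 0% of all genes were called. None of the 8 had an unadjusted p under 0.05, against 58 of 9256 genes tested. DESeq2 called 0 of the 8 and 0 of all genes.

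The median log2 fold change of the genes tested was 0.70 in TME-CM against H-CM EGCs at 24 h, beside 0.00 over all genes, and 0.75 at 12 h, beside -0.00. At 6 h it was 1.42 over the 8 genes, beside 0.13 over all genes, which is the shift to which the 6 h values are relative. All 4 TME-CM libraries lay above all 4 H-CM libraries for 4 of 10 genes at 24 h, 6 of 10 at 12 h and 5 of 8 at 6 h. The 5 at 6 h include Rela, Nfkbiz and Bcl3, which were at 0 in H-CM replicate 4. A 0 there may stand for up to 110 CPM, above their lowest TME-CM library, so their separation is not established. Tnfaip2, also among the 5, held 2 counts in that library, so its separation is uncertain. The share of all genes at 6 h rests on the same library. The same separation was found for 5.59%, 3.95% and 3.54% of all genes tested at these times. TME-CM libraries lay above all unstimulated libraries for 6 of 10, 7 of 10 and 6 of 8 genes at 24 h, 12 h and 6 h (6.74%, 5.99% and 2.42% of all genes). H-CM libraries lay above all unstimulated libraries for 3 of 10, 5 of 10 and 0 of 8 genes (4.14%, 2.27% and 0.486% of all genes).

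Nfkbia encodes IκBα, the inhibitor that holds canonical dimers in the cytoplasm and whose gene is itself a target of NF-κB. At 24 h its level was 126, 124, 115 and 110 CPM in unstimulated EGCs. It was 234, 198, 180 and 178 CPM in H-CM EGCs. It was 421, 363, 374 and 436 CPM in TME-CM EGCs. The 3 groups did not overlap, and each TME-CM library lay above each library of the other groups.

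At 24 h Nfkbia was higher in TME-CM than in H-CM EGCs by 1.01 on the log2 scale (SE 0.12, adjusted p = 1.24e-05). H-CM EGCs lay above unstimulated EGCs by 0.73 (SE 0.12, adjusted p = 0.00145), and TME-CM EGCs lay above them by 1.74 (SE 0.12, adjusted p = 1.91e-09). At 12 h the means were 116 ± 25.8 CPM in unstimulated, 262 ± 24.2 CPM in H-CM and 446 ± 90.8 CPM in TME-CM EGCs, again without overlap. The 12 h difference of TME-CM from H-CM was 0.77 (SE 0.19, adjusted p = 0.0353), that of H-CM from unstimulated was 1.16 (SE 0.19, adjusted p = 0.00389), and that of TME-CM from unstimulated was 1.93 (SE 0.19, adjusted p = 2.53e-06). The 12 h call against H-CM was lost in 6 of 12 fits that left out 1 library. These were the fits without TME-CM replicates 1 (adjusted p = 0.0637), 3 (0.0815) and 4 (0.174), H-CM replicates 2 (0.0638) and 4 (0.139), and unstimulated replicate 3 (0.0544).

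Nfkbia was also the single member called at 6 h. Its level was 130, 161, 236 and 119 CPM in unstimulated EGCs. It was 356, 282, 247 and 147 CPM in H-CM EGCs, the last from 4 counts. It was 766, 493, 1228 and 815 CPM in TME-CM EGCs, all above the other libraries of that time. TME-CM EGCs lay above unstimulated EGCs by 2.33 (SE 0.38, adjusted p = 0.00105). The difference from H-CM EGCs was 1.58 (SE 0.38, adjusted p = 0.152), which did not pass the threshold. It was called with no filter on low counts (adjusted p = 0.0307), by DESeq2 (0.0352), in one model of all 36 libraries (0.000151), with only the 8 libraries compared (0.0485), and without TME-CM replicate 2 (0.037) or unstimulated replicate 3 (0.0444).

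Nfkbiz encodes IκBζ, a nuclear IκB protein that acts with NF-κB at inflammatory genes such as Il6. At 24 h its level was 14.0, 13.0, 12.8 and 16.1 CPM in unstimulated EGCs. It was 52.1, 30.6, 26.4 and 26.7 CPM in H-CM EGCs. It was 143, 89.0, 122 and 128 CPM in TME-CM EGCs. The groups did not overlap, H-CM replicate 1 stood above the other H-CM libraries, and TME-CM replicate 2 was the lowest of its group.

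At 24 h TME-CM EGCs lay above H-CM EGCs for Nfkbiz by 1.82 (SE 0.19, adjusted p = 3.93e-06). They lay above unstimulated EGCs by 3.10 (SE 0.21, adjusted p = 1.24e-09), and H-CM lay above unstimulated EGCs by 1.28 (SE 0.21, adjusted p = 0.00122). At 12 h the means of Nfkbiz were 15.3 ± 4.49, 33.2 ± 1.66 and 89.0 ± 28.5 CPM in unstimulated, H-CM and TME-CM EGCs, without overlap. The 12 h difference of TME-CM from H-CM was 1.43 (SE 0.26, adjusted p = 0.00309), and it was called in all 12 fits that left out 1 library. H-CM against unstimulated EGCs gave 1.09 at 12 h (SE 0.27, adjusted p = 0.104), which did not pass, although all 4 H-CM libraries lay above all 4 unstimulated libraries. Without TME-CM replicate 2 of 12 h it passed (log2 difference 1.10, adjusted p = 0.0299). It also passed by DESeq2's Wald test (adjusted p = 0.0176) and by edgeR with no filter on low counts (0.00471).

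At 6 h Nfkbiz was 113, 108, 205 and 122 CPM in TME-CM EGCs, 32.1, 27.4, 21.1 and 0 CPM in H-CM EGCs, and 19.4, 15.7, 84.1 and 32.9 CPM in unstimulated EGCs. The TME-CM libraries lay above all others as measured, but the 0 in H-CM replicate 4 may stand for up to 110 CPM, above the lowest of them. The log2 difference was 2.41 from H-CM (SE 0.58, adjusted p = 0.152) and 1.94 from unstimulated EGCs (SE 0.55, adjusted p = 0.185), neither of which passed. The value of 84.1 CPM came from the unstimulated library of 256453 counts. Without it, the difference from unstimulated EGCs was 2.58 (adjusted p = 0.0231) and that from H-CM EGCs was 2.42 (adjusted p = 0.0446).

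Bcl3 encodes a nuclear IκB protein that binds p50 and p52 homodimers. At 24 h its level was 4.01, 6.41, 2.12 and 3.09 CPM in unstimulated EGCs. It was 18.7, 8.27, 8.20 and 7.92 CPM in H-CM EGCs. It was 64.9, 31.8, 54.5 and 49.7 CPM in TME-CM EGCs. The groups did not overlap, and H-CM replicate 1 again stood above the other H-CM libraries.

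Bcl3 was higher in TME-CM than in H-CM EGCs at 24 h by 2.22 (SE 0.31, adjusted p = 0.000155) and higher than in unstimulated EGCs by 3.71 (SE 0.34, adjusted p = 3.35e-07). The first call was lost in a model of all 36 libraries (adjusted p = 0.0624) and was kept in all 12 fits that left out 1 library. H-CM EGCs lay above unstimulated EGCs by 1.49 at 24 h (SE 0.35, adjusted p = 0.0304). That call was lost without H-CM replicate 1 (log2 difference 1.08, adjusted p = 0.125), and without unstimulated replicates 1 (adjusted p = 0.0792), 3 (0.112) or 4 (0.123). Without H-CM replicate 1, TME-CM EGCs lay above H-CM EGCs by 1.10 for Nfkbia, 2.10 for Nfkbiz and 2.63 for Bcl3, each larger than with it.

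At 12 h the means of Bcl3 were 3.23 ± 2.41, 11.8 ± 3.03 and 34.3 ± 5.33 CPM in unstimulated, H-CM and TME-CM EGCs. TME-CM EGCs lay above H-CM EGCs by 1.55 (SE 0.40, adjusted p = 0.0468) and above unstimulated EGCs by 3.30 (SE 0.45, adjusted p = 6.56e-05). H-CM EGCs lay above unstimulated EGCs by 1.75 (SE 0.44, adjusted p = 0.122), which did not pass. This difference was called by DESeq2's Wald test (adjusted p = 0.00235) and by edgeR with no filter on low counts (0.00219). The call against H-CM was lost in 8 of 12 fits that left out 1 library. These left out TME-CM replicates 1 (adjusted p = 0.148), 2 (0.0567), 3 (0.107) or 4 (0.174), H-CM replicates 2 (0.154), 3 (0.0502) or 4 (0.170), or unstimulated replicate 4 (0.062). At 6 h Bcl3 was 20.1 to 93.8 CPM in TME-CM EGCs and came from 0 to 12 counts in each of the other 8 libraries. The 6 h differences were 2.70 from H-CM (SE 1.02, adjusted p = 0.727) and 3.79 from unstimulated EGCs (SE 1.04, adjusted p = 0.139).

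**Figure D1:**
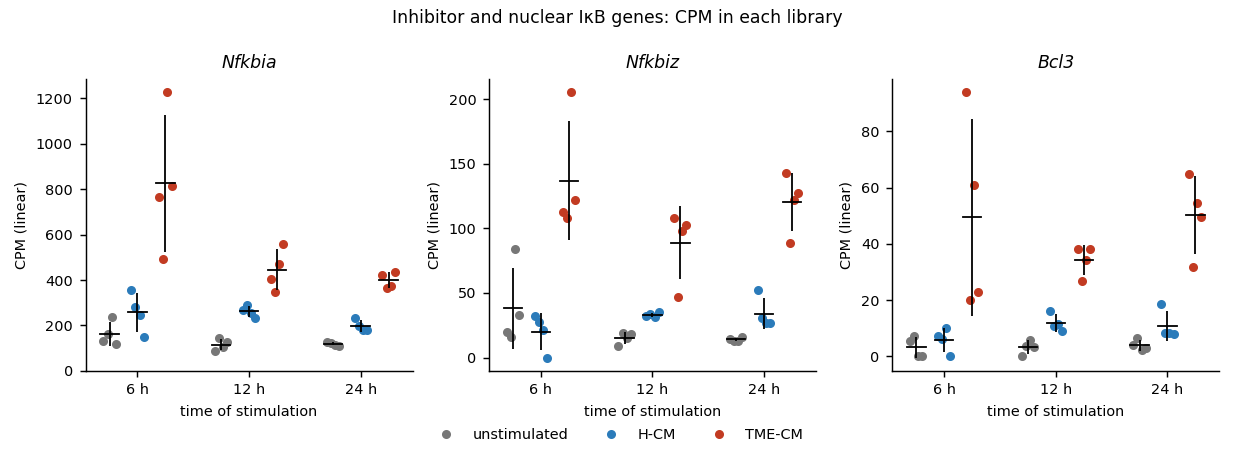
CPM (linear axis) of Nfkbia, Nfkbiz and Bcl3 in each of 36 libraries by time of stimulation, with 1 point per library, a horizontal line at the group mean and a vertical line of 1 SD (n = 4). At 12 h and 24 h the unstimulated, H-CM and TME-CM libraries do not overlap for any of the 3 genes, and at 24 h the TME-CM libraries of Nfkbia span 363 to 436 CPM against 178 to 234 CPM in H-CM.

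The order unstimulated below H-CM below TME-CM held without overlap of any library for 4 of 10 genes at 12 h (Relb, Nfkbia, Nfkbiz and Bcl3) and for 3 of 10 at 24 h (Nfkbia, Nfkbiz and Bcl3). It held for 0.378% of all genes tested at 12 h and for 0.669% at 24 h. At 6 h it held for 0 of 8 members and for 0.0432% of all genes. Called higher in both steps, from unstimulated to H-CM and from H-CM to TME-CM, were 0.433% of all genes at 24 h, with Nfkbia, Nfkbiz and Bcl3 among them, and 0.115% at 12 h, with Nfkbia among them.

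Of the subunit genes, Nfkb2 encodes p100, the precursor of p52, and Relb encodes its usual partner. At 24 h Nfkb2 was 18.6, 18.9, 12.0 and 20.5 CPM in unstimulated, 20.1, 15.4, 19.6 and 21.8 CPM in H-CM, and 30.6, 27.2, 30.0 and 31.2 CPM in TME-CM EGCs. All TME-CM libraries lay above all others, while the H-CM and unstimulated libraries overlapped. Nfkb2 was higher in TME-CM than in unstimulated EGCs by 0.77 (SE 0.19, adjusted p = 0.00873). Against H-CM EGCs the difference was 0.65 (SE 0.19, 95% interval 0.27 to 1.02, adjusted p = 0.0507), just outside the threshold. It was called without unstimulated replicate 1 (adjusted p = 0.0379) or 3 (0.0354), without TME-CM replicate 2 (0.0457), and by DESeq2 (0.0192). At 12 h the means of Nfkb2 were 16.5 ± 9.82, 25.2 ± 0.824 and 41.7 ± 4.54 CPM in the same order. The 12 h difference of TME-CM from unstimulated EGCs was 1.32 (SE 0.31, adjusted p = 0.0116), lost without unstimulated replicate 3 (adjusted p = 0.055), and that from H-CM was 0.73 (SE 0.30, adjusted p = 0.345).

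At 24 h Relb was 13.0, 6.41, 9.73 and 9.02 CPM in unstimulated, 13.6, 7.46, 8.30 and 16.3 CPM in H-CM, and 16.2, 17.6, 17.8 and 18.3 CPM in TME-CM EGCs. The TME-CM libraries lay above all unstimulated libraries and overlapped with 1 H-CM library, replicate 4, which held 1608018 counts. Relb was higher in TME-CM than in unstimulated EGCs by 0.88 (SE 0.26, adjusted p = 0.0329). That call was lost without TME-CM replicates 1 (adjusted p = 0.0567), 3 (0.0755) or 4 (0.0769) and without unstimulated replicates 2 (0.125), 3 (0.0777) or 4 (0.0863). The difference from H-CM was 0.67 (SE 0.26, adjusted p = 0.182). At 12 h Relb was 7.41 to 11.5 CPM in unstimulated, 14.3 to 18.3 CPM in H-CM and 22.4 to 28.0 CPM in TME-CM EGCs, without overlap. The 12 h difference of TME-CM from unstimulated EGCs was 1.53 (SE 0.28, adjusted p = 0.00127), and the steps from unstimulated to H-CM (0.84, adjusted p = 0.465) and from H-CM to TME-CM (0.69, adjusted p = 0.284) did not pass.

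Nfkb1 encodes p105, the precursor of p50. At 24 h it was 20.6, 12.5, 9.87 and 9.02 CPM in unstimulated, 26.9, 11.0, 6.67 and 15.3 CPM in H-CM, and 28.6, 23.4, 19.2 and 26.7 CPM in TME-CM EGCs. The TME-CM libraries overlapped with replicate 1 of both other groups. The difference from H-CM EGCs was 0.73 (SE 0.35, adjusted p = 0.310) and that from unstimulated EGCs was 0.94 (SE 0.34, adjusted p = 0.112). Without H-CM replicate 1 the first was 1.24 (adjusted p = 0.0162) and the second 0.94 (adjusted p = 0.0267). The second was also called without unstimulated replicate 1 (adjusted p = 0.0276) and without H-CM replicate 3 (adjusted p = 0.0393). At 12 h Nfkb1 was 9.59 ± 5.08 CPM in unstimulated and 29.9 ± 11.2 CPM in TME-CM EGCs, a difference of 1.57 (SE 0.36, adjusted p = 0.00923), lost without TME-CM replicate 4 (adjusted p = 0.066). The 12 h level in H-CM EGCs was 14.2 ± 1.59 CPM, below all TME-CM libraries, and the difference of 1.08 did not pass (SE 0.35, adjusted p = 0.152). At 6 h Nfkb1 was 1.49 to 11.7 CPM in unstimulated, 0 to 28.5 CPM in H-CM and 24.8 to 85.4 CPM in TME-CM EGCs. In the same order Nfkb2 was 10.5 to 36.7, 0 to 27.7 and 10.5 to 106 CPM. Relb was 0 to 21.1, 0 to 20.4 and 15.5 to 82.2 CPM. The 0 in H-CM EGCs was that of replicate 4 and may stand for up to 110 CPM. None of these genes was called by edgeR at 6 h.

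Rela encodes p65, the subunit that carries most canonical transcriptional activity. At 24 h its level was 70.5, 58.0, 60.6 and 68.0 CPM in unstimulated EGCs, 64.0, 64.3, 73.1 and 82.7 CPM in H-CM EGCs, and 71.3, 65.2, 82.7 and 73.8 CPM in TME-CM EGCs, which overlapped. The log2 difference of TME-CM from H-CM EGCs was 0.05 with a 95% interval of -0.21 to 0.31 (adjusted p = 0.915), and that from unstimulated EGCs was 0.19 with an interval of -0.07 to 0.45 (adjusted p = 0.523). At 12 h the difference from H-CM was 0.29 (-0.13 to 0.71, adjusted p = 0.703). At 6 h the TME-CM libraries (75.92 to 297 CPM) lay narrowly above the other 8 (0 to 75.87 CPM), with a difference from H-CM of 1.20 (SE 0.52, adjusted p = 0.792). The 0 was that of H-CM replicate 4 and may stand for up to 110 CPM, so this separation is not established. In one edgeR model of all 36 libraries Rela was called at 6 h. The differences there were 1.16 from H-CM (adjusted p = 0.0307) and 1.66 from unstimulated EGCs (adjusted p = 0.00137).

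Rel encodes c-Rel, a subunit known mainly from lymphoid and myeloid cells. Its count summed to 385 over all 36 libraries, with 8 libraries at 0. At 24 h its level was 1.24 to 2.26 CPM in unstimulated, 1.40 to 5.45 CPM in H-CM and 1.15 to 2.96 CPM in TME-CM EGCs, which overlapped. The difference of TME-CM from H-CM EGCs was -0.39 with an interval of -1.37 to 0.59 (adjusted p = 0.796), and a difference was not detectable at this depth. The 42.0 CPM in unstimulated replicate 3 of 6 h came from 8 counts.

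**Figure D2:**
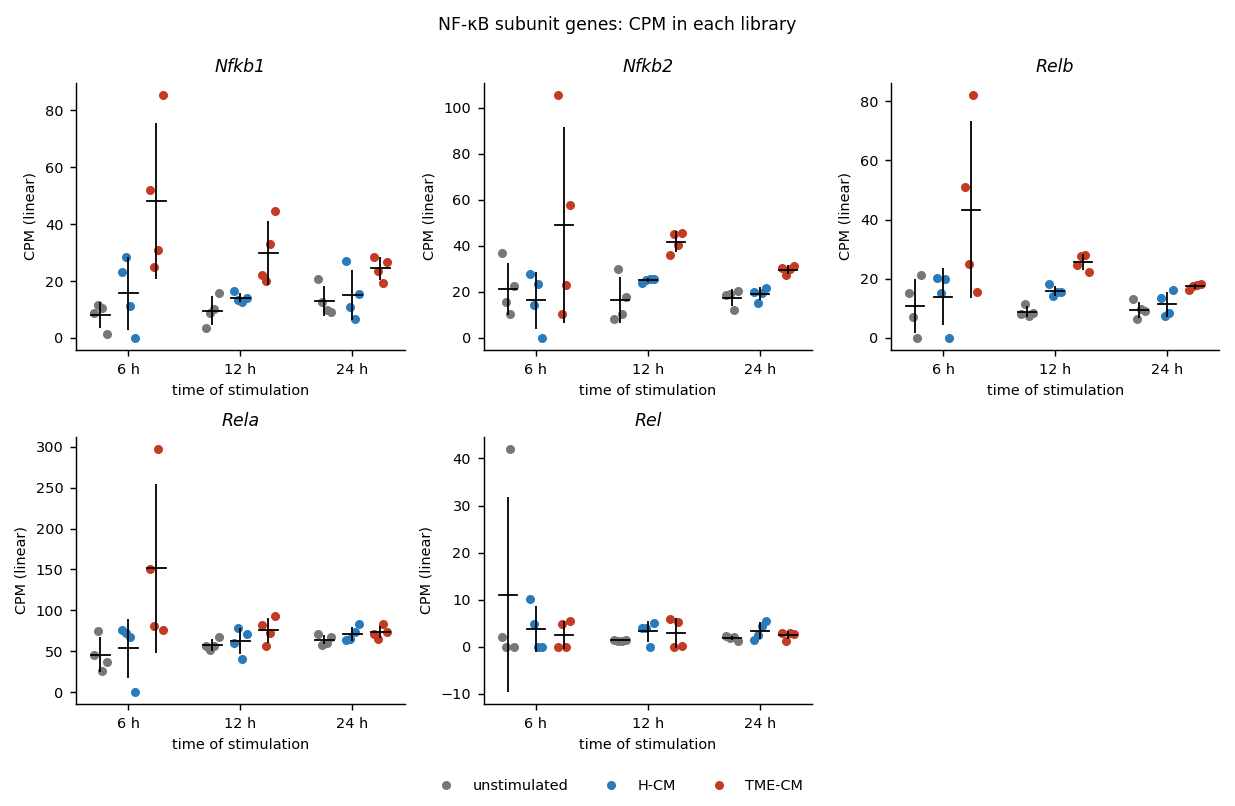
CPM (linear axis) of the 5 NF-κB subunit genes in each of 36 libraries by time of stimulation, with 1 point per library, the group mean and 1 SD (n = 4). At 24 h the TME-CM libraries of Nfkb2 (27.2 to 31.2 CPM) lie above all other libraries of that time, those of Relb (16.2 to 18.3 CPM) above all unstimulated ones, and those of Rela overlap with both other groups.

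Tnfaip3 encodes A20, a ubiquitin-editing enzyme that ends NF-κB signaling downstream of TNF and IL-1 receptors. It was near the limit of detection, with 570 counts in all 36 libraries and 5 libraries at 0. At 6 h, where it was not tested, it was measured at 18.7, 14.3, 0 and 28.8 CPM in TME-CM EGCs and at most 4.75 CPM in the other 8 libraries. Among these, H-CM replicate 4 and unstimulated replicate 3 were at 0, which may stand for up to 110 and 15.7 CPM. At 12 h it was 5.10, 1.20, 5.68 and 12.3 CPM in TME-CM EGCs and 2.42, 0.705, 0.456 and 2.78 CPM in H-CM EGCs. The 12 h difference was 1.93 (SE 0.86, adjusted p = 0.421). At 24 h the TME-CM level was 3.41 ± 2.36 CPM, against 1.34 ± 1.36 CPM in H-CM and 1.01 ± 0.700 CPM in unstimulated EGCs. The 24 h difference from H-CM was 1.27 with an interval of -0.12 to 2.66 (adjusted p = 0.410), and that from unstimulated EGCs was 1.84 with an interval of 0.42 to 3.26 (adjusted p = 0.138).

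Tnfaip2 was first identified as a gene induced by TNF. At 24 h its level was 68.5, 65.7, 63.6 and 71.2 CPM in unstimulated, 98.5, 75.0, 67.3 and 61.9 CPM in H-CM, and 93.5, 117, 87.2 and 83.4 CPM in TME-CM EGCs. The TME-CM libraries lay above all unstimulated libraries and overlapped with the H-CM libraries. The difference from unstimulated EGCs was 0.49 (SE 0.15, adjusted p = 0.0367) and that from H-CM EGCs was 0.31 (SE 0.15, adjusted p = 0.297). The first was lost without TME-CM replicates 1 (adjusted p = 0.0711) or 2 (0.113), without unstimulated replicates 2 (0.0904), 3 (0.114) or 4 (0.0603), and without H-CM replicate 2 (0.0532). At 12 h Tnfaip2 was 122 ± 13.2 CPM in TME-CM and 111 ± 40.2 CPM in H-CM EGCs, and TME-CM EGCs lay 0.74 above unstimulated EGCs (72.5 ± 5.46 CPM, SE 0.22, adjusted p = 0.0563). The latter was called without H-CM replicate 3 (log2 difference 0.75, adjusted p = 0.00311), whose 171 CPM was the highest level of 12 h. It was also called by DESeq2's Wald test (adjusted p = 0.0297). edgeR called it with no filter on low counts (0.0269), with the replicate number as a block (0.0431) and with only the 8 libraries compared (0.00695). At 6 h the TME-CM libraries (225, 164, 519 and 327 CPM) lay above all others (73.6 to 134 CPM) as measured. The 73.6 CPM came from 2 counts in H-CM replicate 4, the library of 13518 counts, so the separation from H-CM EGCs is uncertain. The 6 h difference was 1.53 from H-CM (SE 0.41, adjusted p = 0.231) and 1.51 from unstimulated EGCs (SE 0.39, adjusted p = 0.0966). The second passed without TME-CM replicate 2 (1.74, adjusted p = 0.0318).

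**Figure D3:**
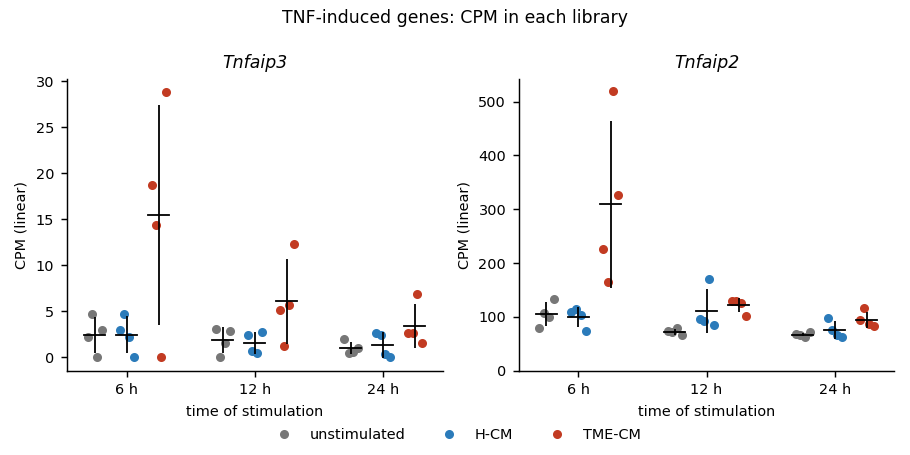
CPM (linear axis) of Tnfaip3 and Tnfaip2 in each of 36 libraries by time of stimulation, with 1 point per library, the group mean and 1 SD (n = 4). At 6 h Tnfaip2 is 164 to 519 CPM in TME-CM EGCs and at most 134 CPM elsewhere as measured, where H-CM replicate 4 holds 2 counts. At 24 h it is 83.4 to 117 CPM in TME-CM and 61.9 to 98.5 CPM in H-CM EGCs.

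Whether the TME-CM over H-CM effect changed with time was tested in models of 16 libraries. From 6 h to 24 h edgeR called 0 of 10 members and 0% of all genes, and DESeq2 called 0 members. An unadjusted p under 0.05 was found for 2 of 10 members and for 1021 of 12115 genes tested. The effect on Tnfaip2 fell by 1.18 on the log2 scale (SE 0.40, adjusted p = 0.376), and without TME-CM replicate 2 of 6 h this was -1.38 (adjusted p = 0.0347), in a fit that called 479 of 12750 genes. The effect on Rela differed by -1.10 (SE 0.51, adjusted p = 0.586). The estimates of Nfkbia, Nfkbiz and Bcl3 were -0.53 (SE 0.33), -0.56 (SE 0.46) and -0.48 (SE 0.78). From 12 h to 24 h edgeR called 0 of 10 members and 0% of all genes, and DESeq2 called 0 members. No member had an unadjusted p under 0.05, against 358 of 12702 genes tested. The estimates of that step were 0.25, 0.40 and 0.67 for Nfkbia, Nfkbiz and Bcl3, with intervals of -0.17 to 0.68, -0.26 to 1.06 and -0.11 to 1.45.

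**Figure D4:**
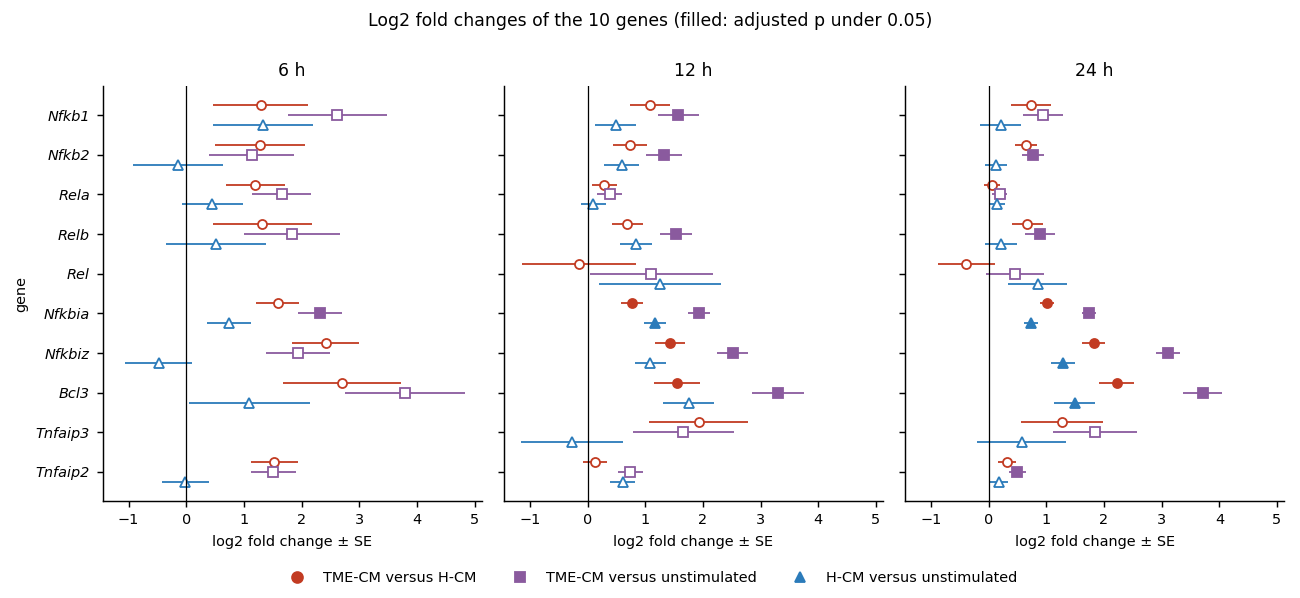
Log2 fold changes ± SE of the 10 genes from the fit of 12 libraries at each time, for TME-CM versus H-CM (circles), TME-CM versus unstimulated (squares) and H-CM versus unstimulated (triangles), filled where the adjusted p is under 0.05. At 24 h the filled circles are Nfkbia (1.01), Nfkbiz (1.82) and Bcl3 (2.22), the error bars are widest at 6 h, and Rel and Tnfaip3 have no 6 h values because they did not pass the filter on low counts.

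The rest of the pathway was described with lists of 85 genes, chosen with earlier results of these data known. They are to be read beside the share of all genes called in TME-CM against H-CM EGCs at 24 h. That share was 5.4% in either direction and 2.75% higher. At 24 h, TME-CM against H-CM EGCs had 1 of 7 genes listed for the IKK complex and kinases around it higher. It was Map3k8 (1.54, SE 0.40, adjusted p = 0.0251), which encodes the kinase Tpl2 that p105 holds inactive. The other 6 genes of that list were not called. Of 21 adaptors tested, 1 was higher, Bcl10 (0.57, SE 0.14, adjusted p = 0.0127). Of 18 other inhibitors, 2 were higher, Tnip1 (0.85, SE 0.15, adjusted p = 0.000881), which encodes an A20-binding protein, and Zc3h12a (2.14, SE 0.46, adjusted p = 0.00551), which encodes the ribonuclease regnase-1. No gene of these lists was lower. The median log2 fold changes were 0.25, 0.09 and 0.24, beside 0.00 over all genes tested.

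Of 11 receptors that signal to NF-κB, 4 were higher in TME-CM than in H-CM EGCs at 24 h and none lower, with a median of 0.89. They were Il1r1, the signaling receptor of IL-1 (1.57, SE 0.20, adjusted p = 2.21e-05), its accessory chain Il1rap (1.31, SE 0.26, adjusted p = 0.00306), Cd40 (1.35, SE 0.22, adjusted p = 0.000524) and the pattern recognition receptor Tlr2 (2.49, SE 0.58, adjusted p = 0.0117). Of 20 widely used NF-κB target genes, a list also chosen with earlier results known, 15 were higher and none lower, with a median of 2.53. The 4 with the smallest adjusted p were Sod2, mitochondrial superoxide dismutase (2.44, SE 0.16), Ier3, an early response gene (1.59, SE 0.13), the neutrophil chemokine Cxcl2 (4.22, SE 0.48) and the prostaglandin synthase Ptgs2 (1.41, SE 0.19). At 12 h 13 of 20 target genes were higher, beside 1.22% of all genes, and at 6 h 4 of 18, beside 0.0972%. The summed level of the 23 listed target genes at 24 h was 768 to 879 CPM in unstimulated, 883 to 2228 CPM in H-CM and 5321 to 6767 CPM in TME-CM EGCs, and the highest H-CM library was replicate 1, which was also the highest H-CM library for Nfkb1, Nfkbia, Nfkbiz, Bcl3, Tnfaip3 and Tnfaip2.

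**Figure D5:**
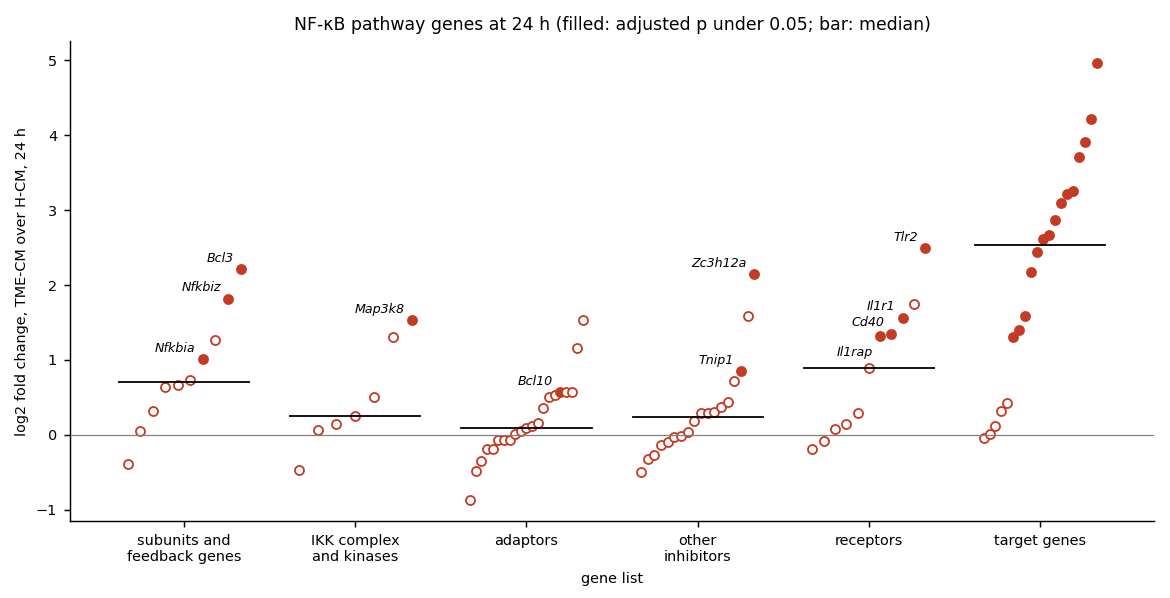
Log2 fold changes of TME-CM over H-CM at 24 h for the tested genes of 6 lists, ordered within each list, with 1 point per gene, filled where the adjusted p is under 0.05, and a bar at the median of the list. The medians are 0.70 for the subunits and feedback genes, 0.25, 0.09 and 0.24 for the kinases, adaptors and other inhibitors, 0.89 for the receptors and 2.53 for the target genes.

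The genes whose 9 group means (log2 CPM, prior count 2) were most like those of Nfkbia, among 10083 genes of at least 5 CPM, were Acsl4 (Pearson r = 0.979), Cxcl2 (0.974), Hk2 (0.973), Cxcl10 (0.973) and Slco3a1 (0.970). For Nfkbiz they were Dab2 (0.976), Kcne4 (0.965), Fam20c (0.965), Osmr (0.962) and Pgk1 (0.955). The mean levels of Osmr, the oncostatin M receptor, at 24 h were 13.8, 19.3 and 58.2 CPM in unstimulated, H-CM and TME-CM EGCs. Those of Acsl4, a fatty acid CoA ligase, were 43.5, 55.3 and 90.9 CPM. These are descriptions over 9 groups that share media, times and depth. Over the same groups, r between members was 0.975 for Nfkb1 and Relb, 0.824 for Nfkbia and Nfkbiz, and -0.243 for Nfkbia and Rel.

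The labelled cell type was checked against markers. Enteric glia markers, Sox10 and S100b among them, were detected in every library of 24 h. Their 11 genes summed to 265 to 315 CPM in unstimulated, 323 to 338 CPM in H-CM and 282 to 379 CPM in TME-CM EGCs. These sums lay below those of the fibroblast and smooth muscle markers given below, and sums of different markers are not shares of cells. Gfap had means of 3.44, 3.16 and 4.09 CPM in the same order. None of those tested was called in TME-CM against H-CM EGCs, and 1, Gfra2, was higher in each medium than in unstimulated EGCs at 24 h. Leukocyte and macrophage markers were present at a summed 62.3 to 245 CPM in unstimulated, 83.2 to 370 CPM in H-CM and 83.2 to 401 CPM in TME-CM EGCs at 24 h. None of the 14 tested was called in TME-CM against H-CM EGCs, and 1, Cd14, was higher in TME-CM than in unstimulated EGCs.

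Fibroblast and smooth muscle markers did move with the groups. At 24 h 4 of 7 fibroblast markers (Dcn, Pdgfra, Lum and Col3a1) were higher in TME-CM than in H-CM EGCs, with summed levels of 6334 to 8037 CPM in TME-CM, 5039 to 5709 CPM in H-CM and 6093 to 7703 CPM in unstimulated EGCs. Of 7 smooth muscle markers, 4 were lower in TME-CM than in H-CM EGCs, and all 7 were lower in either medium than in unstimulated EGCs, with sums of 1702 to 2468, 3232 to 3957 and 6944 to 7974 CPM. In bulk RNA, fewer cells of a type and less RNA per cell cannot be told apart, and the part of these cells in the results above was not tested. At 12 h 1 fibroblast marker was higher and 2 smooth muscle markers were lower in TME-CM than in H-CM EGCs, and at 6 h edgeR called no marker of any list in that comparison. None of 8 neuron markers was called in any comparison. Their sums at 24 h were 215 to 292 CPM in unstimulated, 236 to 294 CPM in H-CM and 175 to 324 CPM in TME-CM EGCs. Of 6 epithelial markers, with sums of at most 6.92 CPM at 24 h and Krt8 and Vil1 at 0 in all 12 libraries of that time, 1 could be tested and was not called. Of 5 endothelial markers, 1 of the 2 tested at 24 h, Kdr, was lower in TME-CM than in H-CM and unstimulated EGCs, and Cldn5 was at 0 in all libraries.

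The members lie on 7 mouse chromosomes. In GRCm38.p6, Nfkbia is at chr12:55489409-55492647, Nfkbiz at chr16:55811375-55838954 and Bcl3 at chr7:19808462-19822824. Nfkb1 is at chr3:135584655-135691969, Nfkb2 at chr19:46300994-46312400, Rela at chr19:5637442-5648134, Relb at chr7:19606217-19629438 and Rel at chr11:23736847-23770969. Tnfaip3 is at chr10:19000910-19015410 and Tnfaip2 at chr12:111442450-111455018. Exons of Nfkb2 share 299 and 531 bases with the opposite-strand genes Psd and AC114539.1, those of Bcl3 share 161 bases with Gm16175, and those of Tnfaip2 share 314 bases with Gm40578. Whether strand was used in counting is not given in the sources used here, so that reads of these overlaps cannot be assigned to one gene.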

How the data were processed

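The 36 EGC libraries were made with QuantSeq 3′ mRNA chemistry, so that reads start near the 3′ end of a transcript. HISAT2 was used by the authors for alignment to mm10, multi-mapping reads were dropped, and HT-seq Count gave the deposited counts per gene, which are not normalized. The submitters' processing notes also list FastQC 0.11.7 and SAMtools 1.5. The annotation, the strand setting and any use of molecular identifiers are not given in the sources used here, so counts are treated as reads. All 36 columns were used, and no 2 libraries held identical values.

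The analysis used edgeR 4.0.16 in R 4.3.3: filterByExpr (minimum count 10), TMM scaling and a robust quasi-likelihood fit with one mean per group over the 12 libraries of a time point, with Benjamini-Hochberg adjustment. Changes of the TME-CM over H-CM effect with time were interaction terms in 16 libraries. SEs are the log2 fold change over the square root of F, and 95% intervals use 1.96 SE. All 10 members are named, with at most 4 genes per pathway list (smallest adjusted p at 24 h, TME-CM against H-CM) and 5 genes per likeness search. The members and lists were chosen with earlier results of these data known. Alternatives were DESeq2 1.42.0 (size factors, and its Wald test), no filter, the replicate number as a block, all 36 libraries or only the 8 compared in a model, Yam1 left out, and every library left out once. Leaving out both 6 h libraries under 300000 counts was added after the data were seen. In simulated data with genes changed by 2 on the log2 scale, the fit of TME-CM against H-CM called 27.3% of 183 changed genes at 6 h, 78.0% of 191 at 12 h and 88.9% of 198 at 24 h, and 14.9% of 194 for the change from 6 h to 24 h. Promoters are from RefSeq (GRCm38.p6), and gene positions and overlaps from a GRCm38.p6 annotation. Results of some genes are left out.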

Additional observations from a re-analysis of the deposited data

Results flagged for a closer look

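In 9 of 90 groups of 4 libraries (10%), the highest or lowest library lay apart from the other 3 by more than Dixon's limit for 4 values, where chance gives about 1 in 20. At 6 h, Rela was at 0 CPM in H-CM replicate 4 (13518 counts in all), with 67.8 CPM in the next library, and Rel was at 42.0 CPM in unstimulated replicate 3, from 8 counts, with 2.16 CPM in the next. Nfkbiz was at 205 CPM in TME-CM replicate 3 of 6 h, above 122 CPM in the next. At 12 h Nfkbiz was at 46.8 CPM in TME-CM replicate 2, below 98.2 CPM in the next. Tnfaip2 was at 171 CPM in H-CM replicate 3 of 12 h, above 96.0 CPM, and at 102 CPM in TME-CM replicate 4, below 126 CPM.

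At 24 h H-CM replicate 1 stood apart for both Nfkbiz, with 52.1 CPM against 30.6 CPM in the next library, and Bcl3, with 18.7 CPM against 8.27 CPM. Rel was at 1.15 CPM in TME-CM replicate 2 of 24 h, below 2.68 CPM, from 3 counts.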

How the results depend on the processing

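Over all members and comparisons no direction of a called value reversed, and 390 of 438 alternative fits of the 23 called results kept the call. In the fits of TME-CM against H-CM at 24 h, Nfkbia and Nfkbiz were called under every alternative. One model of all 36 libraries moved the counts of called members most: TME-CM against H-CM gave 5 at 6 h and 1 at 12 h, TME-CM against unstimulated gave 7 at 6 h, 3 at 12 h and 3 at 24 h, and H-CM against unstimulated gave 0 at 24 h. Over all genes that model called 899 in place of 9 (TME-CM against H-CM) and 1113 in place of 42 (TME-CM against unstimulated) at 6 h, and 71 in place of 686 in TME-CM against H-CM at 24 h. At 6 h TME-CM against H-CM gave 2 with no filter, 2 by DESeq2's Wald test and 2 with only the 8 libraries compared, and TME-CM against unstimulated gave 3 by DESeq2's Wald test and 2 without the libraries under 300000 counts. H-CM against unstimulated at 12 h gave 3 with no filter and 3 by DESeq2's Wald test. With 1 library left out, the counts ranged from 0 to 2 (TME-CM against H-CM, 6 h), 1 to 2 (TME-CM against unstimulated, 6 h), 1 to 3 (TME-CM against H-CM, 12 h), 1 to 2 (H-CM against unstimulated, 12 h) and 0 to 1 (change from 6 h to 24 h). The cause of these moves was not tested. The replicate block gave 1 in TME-CM against H-CM at 12 h (Nfkbia adjusted p = 0.0634, Bcl3 0.0856) and gained Tnfaip2 at 12 h (0.0431) and Nfkb1 at 24 h (0.0143) in TME-CM against unstimulated. Deviations of same-numbered libraries correlated by -0.161 to 0.223 over genes, at most 2 of 4 pairs of any 2 groups exceeded 0.1, and not every library correlated best with its own number, which does not meet the criterion for paired libraries. Of depth, leaving out both 6 h libraries under 300000 counts gave 6 called genes in place of 9 in TME-CM against H-CM, and Rel and Tnfaip3 held 385 and 570 counts in all 36 libraries.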

Other observations

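Further pathway genes were called at 24 h in TME-CM against unstimulated EGCs without being called against H-CM EGCs, and they are named here after their values were seen. Among the adaptors these were Myd88, the adaptor of IL-1 and Toll-like receptors (0.64, SE 0.17, adjusted p = 0.0163), and the ubiquitin ligases Birc2 (0.66, SE 0.21, adjusted p = 0.046) and Birc3 (1.57, SE 0.47, adjusted p = 0.0338). Among the other inhibitors they were N4bp1 (0.51, SE 0.14, adjusted p = 0.0206) and Nlrc5 (3.87, SE 0.85, adjusted p = 0.00401). Among the receptors they were the TNF receptors Tnfrsf1a (0.48, SE 0.13, adjusted p = 0.0218) and Tnfrsf1b (1.28, SE 0.29, adjusted p = 0.0042).

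The summed leukocyte markers at 24 h were 234 to 245 CPM in the libraries numbered 1, 220 to 401 CPM in those numbered 2, 74.2 to 134 CPM in those numbered 3 and 62.3 to 83.2 CPM in those numbered 4. This was seen in the data, and the labels do not say what a number stands for.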
